A study of Rattus norvegicus with 12 samples.

Results

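The dorsal hippocampus (DH) of the rat was compared between postnatal day 28 (P28) and postnatal day 45 (P45). Its members are the 2 libraries labelled P28 DH and the 2 labelled P45 DH, which are 4 of the 12 libraries of the series. The other libraries hold DH at P14 and ventral hippocampus (VH) at P14, P28 and P45, again 2 for each region and age. All animals were Sprague-Dawley rats, for which no genotype, treatment or sex is given in the sources used here. The pieces kept every subfield from the dentate gyrus through CA3, CA2 and CA1 to the subiculum. Tissue between the dorsal and ventral ends was not taken. Nothing in the sources says which animals gave a library or whether animals were pooled. The p-values therefore measure only the spread between these libraries, which may be technical.

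Between weaning and adolescence the rodent hippocampus has its neurons in place, while glia, synapses and inhibitory circuits go on maturing. Oligodendrocytes wrap axons in myelin, a membrane rich in cholesterol, and astrocytes, interneurons and the dentate gyrus, where neurons continue to be born, take on more of their adult properties. The dorsal pole is known for its part in spatial learning and the ventral pole for its part in emotional behaviour.

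Expression was given by the authors as FPKM, a count of sequenced fragments divided by the length of the transcript and by the size of the library, for 17933 RefSeq transcripts. The table holds no read counts, so no counting error is given for a value. In the mapping statistics of the study both P28 DH libraries have fewer uniquely mapped pairs than both P45 DH libraries, and the part of this in the results was not tested. The change of a transcript is the difference of the mean log2(FPKM + 1), P45 minus P28, with the standard error (SE) of limma, a linear model fitted here to all 12 libraries. This scale understates the change of transcripts near or under 1 FPKM. Calls required both a fold change above 1.5 and an adjusted p under 0.05, with 14259 transcripts tested.

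The labels of the 4 libraries held against known regional markers. Nts, a neuropeptide gene of the dorsal pole, was at 89.8 and 67.0 FPKM in the P28 DH libraries and at 99.0 and 79.8 FPKM in the P45 DH libraries, against 3.52 to 8.81 FPKM in the 4 VH libraries of these ages. Nr2f2, which marks the ventral pole, lay between 2.98 and 4.26 FPKM in the 4 DH libraries and between 21.8 and 34.9 FPKM in the VH libraries. Markers of choroid plexus summed to 2.40 to 3.84 FPKM over 12 transcripts in the 4 DH libraries. Markers of blood, led by the haemoglobin gene Hbb, summed to 1448 and 2040 FPKM at P28 and 1143 and 1345 FPKM at P45, and their part in the results was not tested.

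The step from P28 to P45 in DH was small beside the spread of the duplicates. On the log2 scale the Euclidean distance over all transcripts tested was 39.4 between the P28 DH libraries and 36.6 between the P45 DH libraries. The 4 distances between a P28 and a P45 DH library were 39.7 to 42.3, while those between a P14 and a P28 DH library were 46.7 to 48.4. limma called 1 transcript higher (0.00701%) and 0 lower (0%) at P45. At an unadjusted p under 0.05 there were 736 higher (5.16%) and 882 lower (6.19%), and the median change over all transcripts was 0. For the earlier step from P14 to P28 in DH, which shares the P28 libraries, the calls were 216 higher (1.51%) and 283 lower (1.98%).

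The transcript that rose was 1 of 4 forms of Ntf3, which encodes neurotrophin-3, a ligand of the TrkC receptor. This form (NM_001270868) was at 2.81e-05 and 1.39e-05 FPKM at P28 and at 0.544 and 0.512 FPKM at P45, a change of 0.61 ± 0.04 (SE, adjusted p = 0.00606, limma). Both P45 libraries thus lay above both P28 libraries, but at a level below 1 FPKM. The main form of the gene (NM_001270869) was at 14.8 and 17.4 FPKM at P28 and at 17.4 and 22.7 FPKM at P45, where the change of 0.29 ± 0.17 was not called (adjusted p = 0.562, limma). With the 4 forms summed the gene stood at 16.2 and 17.4 FPKM at P28 and 18.6 and 25.1 FPKM at P45 (change 0.34 ± 0.18, adjusted p = 0.516, limma). Outside the P45 DH libraries this form was near 0 in every library, so its small SE is drawn mostly from values at the floor. The call is therefore no evidence of a change in the gene's summed level, and a shift between forms was not tested. It was lost with quantile normalization (adjusted p = 0.0858), in fits of the 6 DH libraries or the 4 libraries alone (adjusted p = 0.0752 and 0.234) and in limma's treat test against the fold of 1.5 (adjusted p = 1).

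The next genes by p-value on the higher side were not called among all 14259 transcripts. With the test limited to the 11190 transcripts that averaged 1 FPKM or more, limma called 5 higher (0.0447%) and 1 lower (0.00894%). The 5 were C1qtnf5, Gfap, S100a13, Tmem176b and Bmp4 (adjusted p = 0.0404, 0.0404, 0.0404, 0.0306 and 0.0306), and the 1 lower was Vwa1 (adjusted p = 0.0404).

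Bmp4, a secreted ligand of the bone morphogenetic protein receptors that is also made by committed oligodendrocyte precursors, was at 0.312 and 0.766 FPKM at P28 and at 6.29 and 9.97 FPKM at P45. The P45 libraries did not overlap with the P28 libraries and were higher by a fold of 5.88 on the FPKM + 1 scale (log2 change 2.55 ± 0.34, adjusted p = 0.12 among all transcripts, limma). In VH the gene was at 0.930 and 0.392 FPKM at P28 and at 5.87 and 7.41 FPKM at P45, so both regions held the same order of ages.

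Gfap, the intermediate filament of astrocytes, was at 292 and 256 FPKM at P28 and at 510 and 495 FPKM at P45 (change 0.88 ± 0.14). S100a13, a calcium-binding protein of the S100 family, was at 88.5 and 94.9 FPKM at P28 and at 179 and 161 FPKM at P45 (change 0.88 ± 0.14, adjusted p = 0.127 for both genes among all transcripts, limma). For both genes every P45 library lay above every P28 library. In bulk tissue, more cells of a type and more RNA per cell cannot be told apart, nor can fewer cells and less RNA, which holds for every result here.

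C1qtnf5, a secreted protein of the C1q and tumour necrosis factor related family, was at 12.1 and 12 FPKM at P28 and at 19.7 and 23.6 FPKM at P45 (change 0.79 ± 0.10, adjusted p = 0.107, limma). MGC94207 was at 9.31 and 7.94 FPKM at P28 and at 13.8 and 13.4 FPKM at P45. Neither gene overlapped between the ages.

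Tmem176b, a membrane protein of intracellular vesicles, was among the higher genes through 1 of its 7 transcripts. This form (NM_001270591) was at 2.45 and 3.01 FPKM at P28 and at 6.53 and 7.54 FPKM at P45 (change 1.11 ± 0.12, adjusted p = 0.0531, limma). Summed over its 7 forms, Tmem176b stood at 48.0 and 37.9 FPKM at P28 and at 47.3 and 42.4 FPKM at P45 (change 0.07 ± 0.13). The summed level overlapped between the ages and varied between duplicates by more than the form rose. Whether the rise was a shift between forms was not tested. Tmem176b also overlaps Tmem176a in the RefSeq annotation. Whether the counting used strand is not given in the sources used here, so reads of overlapping genes may not be told apart.

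On the lower side, Vwa1, an extracellular matrix protein with a von Willebrand factor A domain, was at 14.1 and 11.3 FPKM at P28 and at 6.43 and 6.64 FPKM at P45 (change −0.86 ± 0.11, adjusted p = 0.107, limma). Igfbp4, a binding protein of the insulin-like growth factors, was at 16.0 and 17.1 FPKM at P28 and at 9.56 and 9.84 FPKM at P45 (change −0.71 ± 0.11, adjusted p = 0.127). Dpp10, an auxiliary subunit of Kv4 potassium channels, was at 14 and 14.6 FPKM at P28 and at 8.56 and 7.85 FPKM at P45 (change −0.73 ± 0.13, adjusted p = 0.161). In each of the 3 genes both P45 libraries lay below both P28 libraries.

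Other leading genes on the lower side were Spef1, Ifi27l2b, Nup43 and Cyp1b1, none of them called. Spef1, a microtubule-binding protein of motile cilia and sperm flagella, was at 6.56 and 5.50 FPKM at P28 and at 2.71 and 3.14 FPKM at P45. Cyp1b1, a cytochrome P450, was at 9.21 and 7.36 FPKM at P28 and at 2.17 and 3.53 FPKM at P45, and Nup43, a nucleoporin, at 4.31 and 4.03 FPKM and then 0.994 and 1.49 FPKM. Both P45 libraries were lower in all 3. Nup43 overlaps Pcmt1 and Cyp1b1 overlaps Rmdn2 in the annotation. Mgat4a, a glycosyltransferase that branches N-glycans, was named through a form (NM_001012225) at 5.10 and 6.90 FPKM at P28 and at 1.33 and 0.00132 FPKM at P45. Its other form (NM_001160155) went the other way, from 3.86 and 3.54 FPKM to 6.43 and 9.14 FPKM, and the sum of the 2 forms differed by −0.18 ± 0.12.

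**Figure D1:**
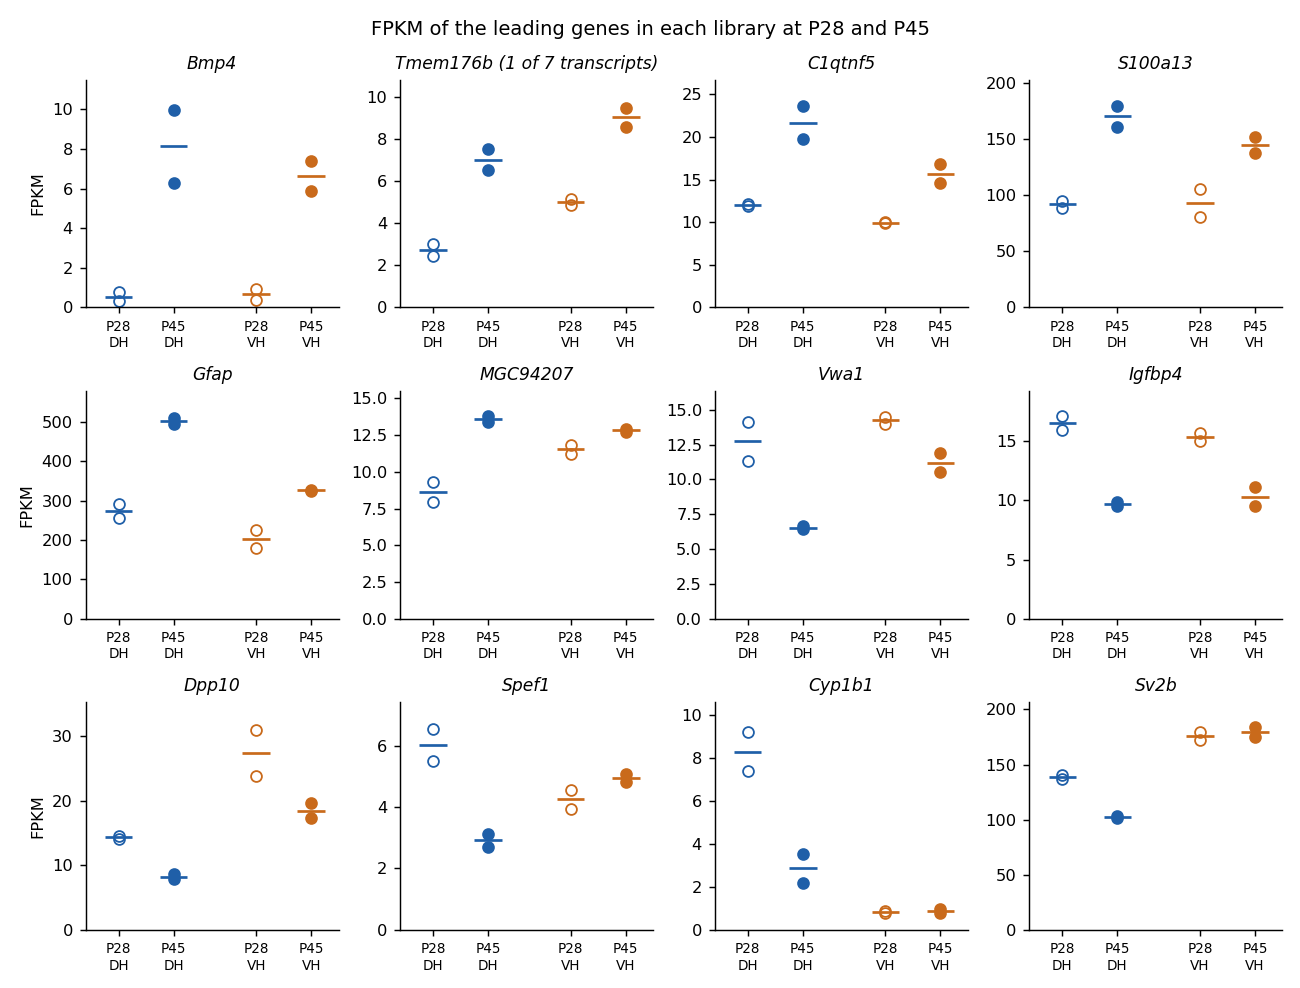
FPKM of 12 leading genes in each library at P28 (open circles) and P45 (filled circles), in DH (blue) and VH (orange), with a bar at the mean of the 2 libraries and axes from 0. In all 12 panels the P28 and P45 DH libraries are separated, as for Bmp4 at 0.312 and 0.766 FPKM against 6.29 and 9.97 FPKM, while in VH Spef1, Cyp1b1 and Sv2b show no such drop.

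The same step was also averaged over DH and VH, a contrast added after the values were seen. It called 8 transcripts higher (0.0561%) and 13 lower (0.0912%) at P45, and by the adjusted p alone 24 (0.168%) and 32 (0.224%). Among the 8, Bmp4, Tmem176b, Gfap, S100a13 and C1qtnf5 have been given above. Qdpr, which regenerates the tetrahydrobiopterin cofactor of monoamine synthesis, was at 77.2 and 73.0 FPKM in the P28 DH libraries and at 116 and 98.3 FPKM in the P45 DH libraries (averaged change 0.64, adjusted p = 0.0392, limma). Pla2g7, a phospholipase that inactivates platelet-activating factor, was at 18.8 and 19.2 FPKM in DH at P28 and at 28.7 and 25.5 FPKM at P45 (averaged change 0.68, adjusted p = 0.0354). For both genes the P45 libraries of DH were the higher ones. The remaining transcript, a form of the cytolinker gene Plec, was near 0 in all DH libraries and reached the call through VH.

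Of the 13 that fell averaged over both regions, Retsat, which saturates retinol, was at 41.2 and 35.8 FPKM in DH at P28 and at 16.6 and 15.8 FPKM at P45 (averaged change −1.32, adjusted p = 0.0383, limma). Col3a1, a collagen of fibroblasts, was at 4.99 and 3.17 FPKM in DH at P28 and at 1.94 and 1.71 FPKM at P45 (averaged change −1.09, adjusted p = 0.0348). Tmem163, a zinc-binding protein of synaptic vesicles, was at 5.32 and 6.05 FPKM and then 3.24 and 3.48 FPKM. The DH libraries of the 2 ages did not overlap in any of these genes. Col3a1 is 1 of 10 transcripts of the list of meningeal fibroblast markers, which summed to 52.8 and 48.4 FPKM in DH at P28 and to 48.4 and 55.3 FPKM at P45. In VH the list summed to 67.8 and 74.2 FPKM and then 44.1 and 49.1 FPKM, with 9 of 10 transcripts lower and a median of −0.50, and its part in the averaged call was not tested.

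Olfm2, an olfactomedin family protein, was at 21.5 and 21.1 FPKM in DH at P28 and at 13.5 and 14.9 FPKM at P45. A form of the AMPA receptor subunit gene Gria4 (NM_017263) was at 9.55 and 8.68 FPKM and then 5.90 and 5.11 FPKM, while its 3 forms summed to 33.6 and 42.3 FPKM and then 34.2 and 29.4 FPKM, which overlap. A form of Nfasc (NM_001160315), which encodes the node and axon initial segment protein neurofascin, was at 25.9 and 21.4 FPKM and then 13.3 and 9.20 FPKM, and its 4 forms summed to 77.8 and 69.1 FPKM and then 54.5 and 51.8 FPKM. As named, all 3 were lower in both P45 DH libraries. The other 7 were Vwa1, Igfbp4, Dpp10, Reln, Marcksl1, Tnfrsf11a and Cdkn1a. Leaving out any 1 library left 1 to 17 of such calls, with 1 without library 1 of P45 DH and 2 without library 1 of P28 DH. With the replicate number as a block the calls were 11 over all libraries and 10 within age.

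Gene lists written for cell types and pathways were then read in the DH step, 34 lists in all. No transcript of any list was called in DH (smallest adjusted p = 0.12, limma), so each list is described by its counts beside the same counts over all 14259 transcripts. Over all of them 48% were higher and 49.8% lower at P45. Both P45 libraries lay above both P28 libraries in 19.1% and below them in 20.4%.

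The interneuron list was one-sided. All 13 of its transcripts tested had a lower mean at P45, 11 of them with no overlap between the ages (20.4% over all transcripts), and 10 had an unadjusted p under 0.05 (6.19% over all). The median change was −0.42, and it lay between −0.52 and −0.38 when any 1 library was left out. Gad1 and Gad2 make the enzymes that synthesise GABA. Gad1 was at 85.9 and 102 FPKM at P28 and at 68.0 and 71.2 FPKM at P45, and Gad2 at 93.2 and 131 FPKM and then 77.3 and 66.3 FPKM. Both were lower in both P45 libraries, with unadjusted p of 0.00515 and 0.00761.

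Slc32a1, the vesicular GABA transporter, was at 39.8 and 41.1 FPKM at P28 and at 31.0 and 31.8 FPKM at P45. Cnr1, the cannabinoid receptor carried by cholecystokinin interneurons and also by other cells, was at 96.9 and 99.7 FPKM and then 66.9 and 67.6 FPKM (change −0.54 ± 0.10, adjusted p = 0.161, limma). Sst, the peptide somatostatin of dendrite-targeting interneurons, was at 123 and 117 FPKM and then 85.1 and 94.0 FPKM. None of the 3 overlapped between ages.

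Reln, the secreted glycoprotein of Cajal-Retzius cells and of interneurons, was at 12.1 and 13.3 FPKM at P14, 7.26 and 8.83 FPKM at P28 and 4.16 and 4.97 FPKM at P45 in DH. It was the only member of the list with an adjusted p under 0.05 in the step averaged over both regions (averaged change −0.74, adjusted p = 0.0433, limma). Lhx6, Erbb4, Syt2 and Kcnc1 made up the rest of the 10. Pvalb, the calcium buffer of fast-spiking basket cells, was at 162 and 131 FPKM at P28 and 127 and 129 FPKM at P45, with a change of only −0.19 ± 0.11 and an unadjusted p of 0.139. Vip was at 12.5 and 8.66 FPKM at P28 and 10.9 and 6.52 FPKM at P45, which overlap. In VH the same list had 12 of 13 transcripts lower (50.8% over all), with a median of −0.33.

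Genes of mature oligodendrocytes and myelin were lower as well. Of 29 transcripts of 24 genes, 27 had a lower mean at P45, 21 with no overlap (20.4% over all transcripts). An unadjusted p under 0.05 was found for 12 of them (6.19% over all). The median change was −0.42 in DH and −0.19 in VH. Cnp, an enzyme of the non-compact myelin of the sheath, was at 323 and 269 FPKM at P28 and at 215 and 201 FPKM at P45 (change −0.50 ± 0.18, adjusted p = 0.363, limma). Cldn11, which seals the layers of the sheath, was at 263 and 258 FPKM and then 161 and 149 FPKM. Ugt8, which makes the myelin lipid galactocerebroside, was at 77.8 and 76.3 FPKM and then 43.5 and 37.0 FPKM. All 3 were lower in both P45 libraries, and Ugt8 had the largest change of the list at −0.92 ± 0.27.

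The periaxonal adhesion protein gene Mag was at 126 and 114 FPKM at P28 and at 74.5 and 72.4 FPKM at P45. Mobp was at 137 and 118 FPKM and then 81.8 and 79.7 FPKM, and the outer surface protein gene Mog at 102 and 108 FPKM and then 71.9 and 70.3 FPKM. Again none overlapped. Mbp, the protein that compacts the sheath, differed by form. Its main form (NM_017026) stood at 1715 and 1379 FPKM at P28 and 1392 and 1196 FPKM at P45, which overlap, while the form NM_001025294 stood at 76.5 and 50.3 FPKM and then 37.4 and 33.6 FPKM.

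Hapln2, a link protein of the matrix at the node of Ranvier, ran against the list. It was at 1.09 and 1.30 FPKM at P14, 12.2 and 8.0 FPKM at P28 and 13.5 and 15.2 FPKM at P45 (change 0.49 ± 0.19 in the late step, unadjusted p = 0.0292). Both P45 libraries were the highest of DH. The summed FPKM of the list was 6627 and 5807 at P28 and 4720 and 4025 at P45, against 4945 and 3855 at P14. In the step from P14 to P28, with which the P28 libraries are shared, 8 transcripts of the list were called higher and 1 lower (1.51% and 1.98% over all).

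Precursors of oligodendrocytes gave 12 of 13 transcripts lower and 1 higher, Bmp4. Enpp6, a choline phosphodiesterase of newly forming oligodendrocytes, was at 13.8 and 12.2 FPKM at P28 and at 5.93 and 7.12 FPKM at P45. Gpr17, a receptor of committed precursors, was at 36.3 and 35.7 FPKM and then 23.5 and 25.7 FPKM. Pdgfra, the growth factor receptor of early precursors, was at 20.9 and 22.1 FPKM and then 18.0 and 18.7 FPKM. The 3 genes were lower in both P45 libraries, by −0.90 ± 0.24, −0.53 ± 0.12 and −0.22 ± 0.07. Of the 12 lower transcripts 5 had an unadjusted p under 0.05 (6.19% over all transcripts).

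**Figure D2:**
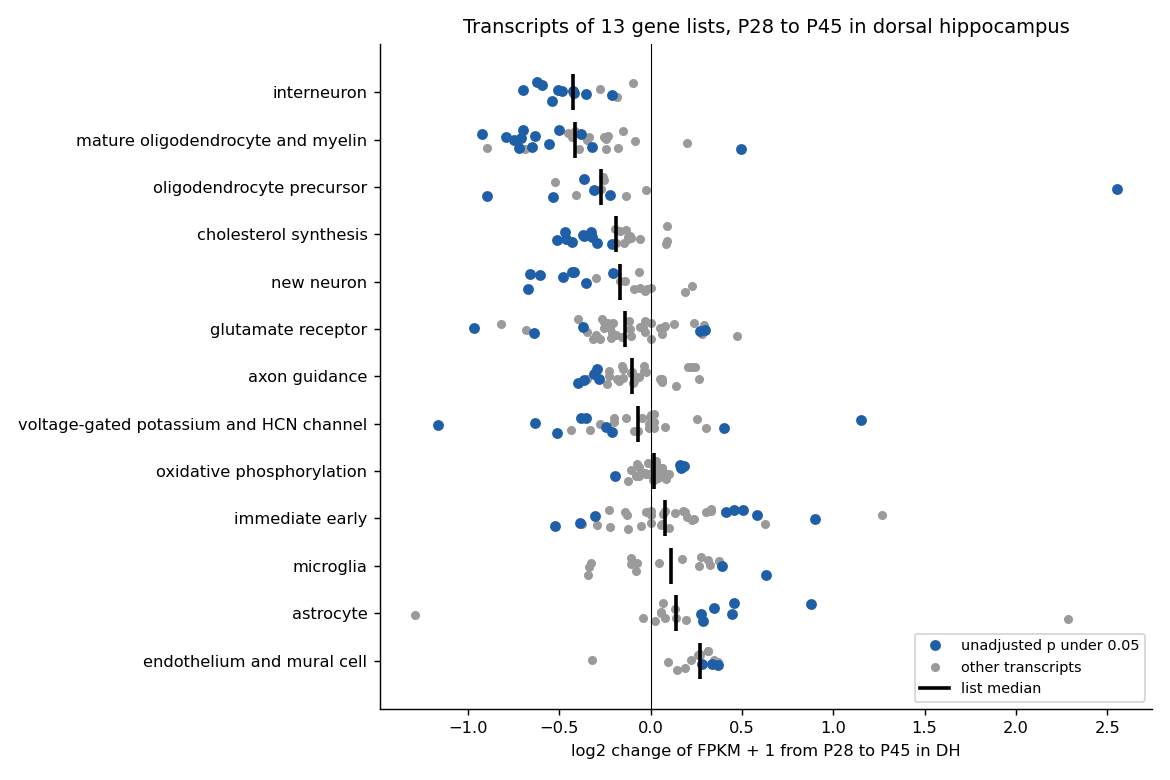
Log2 change of FPKM + 1 from P28 to P45 in DH for every transcript tested of 13 gene lists, with blue points at an unadjusted p under 0.05 and a black bar at the list median. The interneuron points all lie left of 0 (median −0.42), the myelin points lie left of 0 but for 2, and the astrocyte points lie right of 0 but for 2.

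Enzymes and regulators of cholesterol synthesis gave 20 of 23 transcripts lower at P45. Of these 16 had no overlap (20.4% over all transcripts) and 10 an unadjusted p under 0.05 (6.19% over all). The median was −0.19 in DH and 0.02 in VH. Acat2, a cytosolic acetyl-CoA acetyltransferase at the start of the pathway, was at 25.4 and 23.7 FPKM at P28 and at 17.4 and 18.5 FPKM at P45 in DH, and the step of VH minus that of DH was 0.65 (unadjusted p = 0.000746). In VH Acat2 was at 20 and 17.7 FPKM at P28 and at 23.4 and 21 FPKM at P45. The gene was thus lower in both P45 libraries of DH and higher in both of VH.

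Hmgcs1, the HMG-CoA synthase, was at 173 and 176 FPKM at P28 and at 138 and 141 FPKM at P45. Idi1, the isopentenyl diphosphate isomerase, was at 26.7 and 26.4 FPKM and then 20.3 and 16.5 FPKM. Both were lower in both P45 libraries of DH. Idi1 overlaps Wdr37 in the annotation. Lss, the lanosterol synthase, did not follow the rest, with 28.1 and 23.3 FPKM at P28 and 28.8 and 25.9 FPKM at P45. Tests of the difference between the regions gave 6 of the 23 with an unadjusted p under 0.05, all on the side of a higher step in VH (3.98% over all transcripts), and none of the 6 had an adjusted p under 0.05 in limma.

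Most promoters of these genes that could be read hold a short element, which is shown because 20 of the 23 transcripts had a lower mean at P45. The letters GCCAAT, on either strand (ATTGGC as its reverse complement), were looked for in RefSeq windows of the GRCr8 build from 250 bases before to 50 bases after each gene's start, after the values had been seen. GCCAAT holds the CCAAT box, and ATTGGC is that box inverted. Of 25 symbols on the list 17 had a window, and 14 of the 17 (82.4%) held the letters, against 14% of all 33469 windows. The list of interneurons had 0 of 13 and that of myelin 6 of 19 (31.6%). A match is a description of sequence and no record of binding. Some of the lower genes with an element, 4 in all, are printed 5′ to 3′ on the strand of the gene, with up to 40 bases on each side of a match and the letters in capitals.
Ebp, chrX:16971307-16971392, plus strand: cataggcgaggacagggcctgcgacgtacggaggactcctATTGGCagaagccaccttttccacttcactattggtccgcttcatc
Hmgcs1, chr2:53382076-53382216, plus strand: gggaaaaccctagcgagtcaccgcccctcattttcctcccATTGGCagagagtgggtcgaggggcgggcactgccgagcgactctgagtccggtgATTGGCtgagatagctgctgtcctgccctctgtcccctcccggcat
Idi1, chr17:66547525-66547599, minus strand: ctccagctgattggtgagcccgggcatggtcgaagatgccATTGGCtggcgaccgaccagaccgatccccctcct
Tm7sf2, chr1:212789585-212789670, minus strand: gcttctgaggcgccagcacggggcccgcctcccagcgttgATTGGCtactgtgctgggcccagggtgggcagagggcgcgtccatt

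In these 4 promoters the matches were in the reverse orientation, while Mvd, also lower with an unadjusted p under 0.05 and not printed, held a forward match 3 bases before its start, and Fdps and Msmo1 held forward matches as well. The match began 115 bases before the start in Ebp, 188 and 133 bases before it in Hmgcs1, 35 bases in Idi1 and 89 bases in Tm7sf2. Ebp, the sterol isomerase, was at 9.06 and 9.92 FPKM at P28 and at 7.71 and 6.57 FPKM at P45, and Tm7sf2, the sterol reductase of carbon 14, at 13.2 and 13.5 FPKM and then 8.89 and 9.91 FPKM. The element did not separate lower genes from the rest. Lss, which was not lower, held it 82 bases before its start, whereas Acat2 and Dhcr7, both lower with an unadjusted p under 0.05, had no match.

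**Figure D3:**
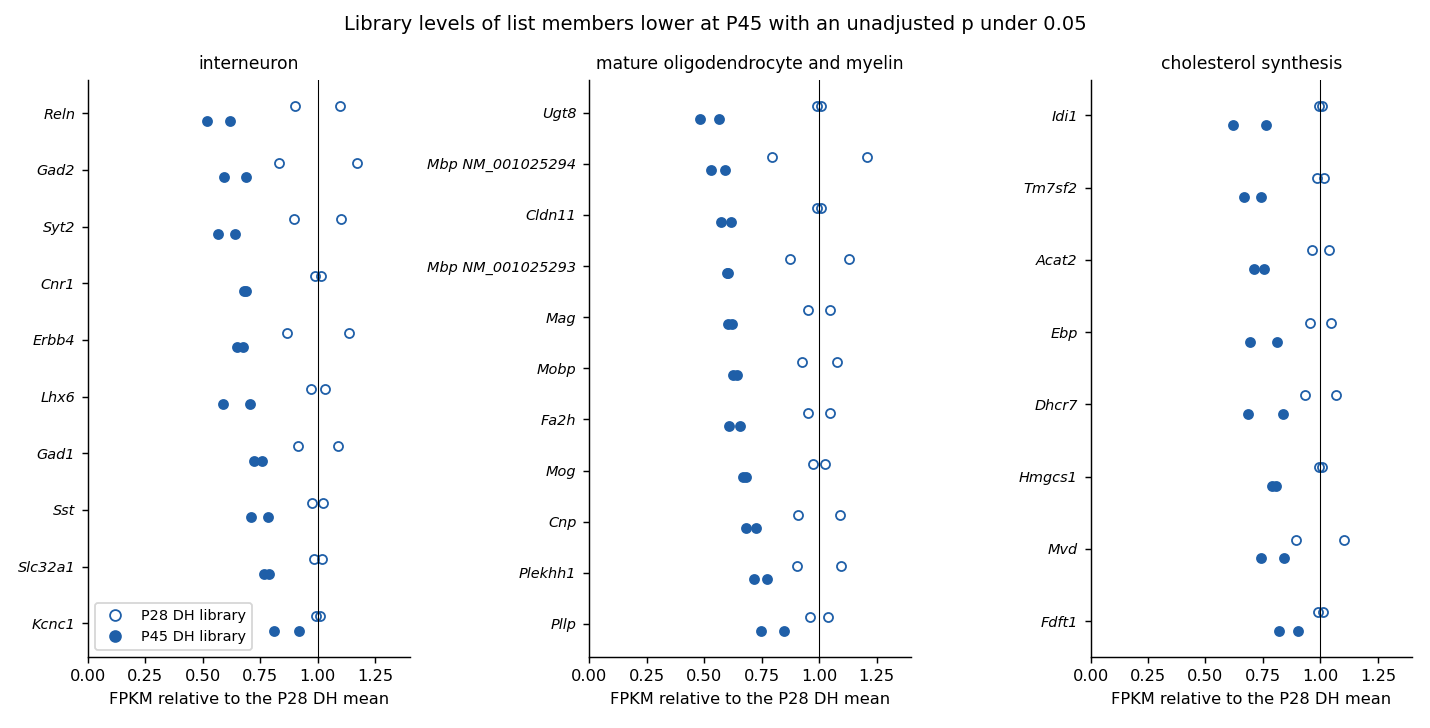
FPKM in each DH library relative to the mean of the P28 DH libraries, for list members lower at P45 with an unadjusted p under 0.05 (10 of interneurons, 11 of the 12 of myelin and 8 of the 10 of cholesterol synthesis, the others not being reported here). P28 libraries are open and P45 libraries filled, and the P45 values run from 0.517 to 0.916 for interneurons, from 0.48 to 0.845 for myelin and from 0.622 to 0.902 for cholesterol synthesis.

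Astrocyte genes were mostly higher at P45. Of 17 transcripts 15 had a higher mean, 9 with no overlap (19.1% over all) and 6 with an unadjusted p under 0.05 (5.16% over all). The median was 0.14, and it lay between 0.10 and 0.22 when 1 library was left out, with 0.22 without library 1 of P28 DH. The calcium-binding protein gene S100b was at 1037 and 914 FPKM at P28 and at 1408 and 1271 FPKM at P45 (change 0.46 ± 0.09). The gene rose in the step averaged over the regions (adjusted p = 0.0392, limma), as Gfap did, although at a fold under 1.5. Fgfr3, a growth factor receptor of astrocytes, was at 22.4 and 19.7 FPKM and then 26.0 and 25.6 FPKM. Slc1a3, the glutamate transporter GLAST, was level at 341 and 350 FPKM and then 337 and 335 FPKM, and Glul, the glutamine synthetase, was at 846 and 769 FPKM and then 858 and 911 FPKM.

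Aqp4, the water channel of astrocyte endfeet, has 4 forms that the table splits. The main form (NM_012825) was at 111 and 113 FPKM at P28 and at 175 and 134 FPKM at P45. Summed over the forms it was at 155 and 162 FPKM and then 220 and 175 FPKM (change 0.31 ± 0.15, adjusted p = 0.477, limma). Both sums at P45 lay above both at P28.

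Endothelial and mural genes gave 14 of 15 transcripts higher in DH, with a median of 0.27 (0.06 in VH). Of these 9 had no overlap (19.1% over all transcripts) and 3 an unadjusted p under 0.05 (5.16% over all). Leaving out 1 library moved the median in DH between 0.10 (without library 2 of P28 DH) and 0.39 (without library 1 of P28 DH). Cldn5, the tight junction protein of the blood-brain barrier, was at 51.5 and 46.1 FPKM at P28 and at 55.9 and 68.3 FPKM at P45. Abcb1a, the drug efflux pump of the barrier, was at 7.78 and 7.54 FPKM and then 10.4 and 9.96 FPKM, and the receptor gene Kdr was at 2.23 and 1.97 FPKM and then 3.0 and 2.55 FPKM. Each was higher in both P45 libraries, by 0.34 ± 0.09, 0.37 ± 0.10 and 0.28 ± 0.12. Microglial genes were split, with 9 of 16 higher and 7 lower. Fcer1g and Laptm5, 2 of the 16, were higher with an unadjusted p under 0.05 (5.16% over all).

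Genes of new neurons, which fell steeply between P14 and P28 (14 of 19 called lower in that step, 1.98% over all transcripts), went on being lower at P45. Of 19 transcripts 16 had a lower mean, 10 with no overlap (20.4% over all), and for 8 the unadjusted p was under 0.05 (6.19% over all). The median was −0.17. Tubb2b, a tubulin of growing neurites, was at 605 and 565 FPKM at P14, 155 and 158 FPKM at P28 and 114 and 117 FPKM at P45 (late change −0.43 ± 0.07, adjusted p = 0.127, limma). Sox11, a transcription factor of immature neurons, was at 26.0 and 25.4 FPKM, 5.72 and 5.90 FPKM and 3.23 and 3.74 FPKM. The late change was in each case a small part of the whole.

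Igfbpl1, a marker of neuroblasts, was at 2.77 and 3.40 FPKM at P28 and at 1.64 and 1.48 FPKM at P45, and Calb2, the calretinin of immature granule cells and some interneurons, at 13 and 8.89 FPKM and then 6.93 and 5.99 FPKM. Dcx, the doublecortin of migrating neurons, was at 6.14 and 7.56 FPKM and then 5.08 and 5.67 FPKM, with a change of −0.30 ± 0.16 and an unadjusted p of 0.109. Marcksl1, an actin-regulating protein of growing neurites, was at 75.1 and 80.9 FPKM and then 56.1 and 59.9 FPKM and was called in the averaged step (averaged change −0.59, adjusted p = 0.0241, limma). All 4 were lower in both P45 libraries. Genes of the cell cycle gave 14 of 22 transcripts higher and 8 lower.

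Among receptors and channels the changes ran both ways. Gabrd, the δ subunit of extrasynaptic GABA-A receptors of granule cells, was at 14.6 and 15.6 FPKM at P28 and at 25.1 and 26.2 FPKM at P45 (change 0.73 ± 0.17, adjusted p = 0.231, limma). In VH it was at 14.2 and 11.8 FPKM and then 13.9 and 11 FPKM. The gene was higher in both P45 libraries of DH and overlapped between the ages in VH, and the test of the difference gave −0.78 with an unadjusted p of 0.0113. Dentate granule cell markers as a list also had a higher median in DH (0.18) and a lower one in VH (−0.20), and their part in this difference was not tested. Gabrb1, a β subunit, was at 28.8 and 36.3 FPKM and then 26.6 and 21.6 FPKM.

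The chloride importer gene Slc12a2 was at 22.2 and 23.0 FPKM at P28 and at 18.0 and 16.3 FPKM at P45, and the chloride exporter gene Slc12a5 at 113 and 115 FPKM and then 122 and 120 FPKM. The importer was lower and the exporter slightly higher at P45, by −0.38 ± 0.13 and 0.09 ± 0.06, the latter with an unadjusted p of 0.22. Over the list of GABA receptors and chloride transport 10 of 22 transcripts were higher and 12 lower.

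Glutamate receptor genes gave 27 of 40 transcripts lower, and an unadjusted p under 0.05 was found for 3 lower and 2 higher ones, near the shares over all transcripts. The median of −0.14 became −0.22 without library 1 of P28 DH and −0.06 without library 2. Gria2, the AMPA receptor subunit that blocks calcium entry, was split by form. The form NM_017261 was at 126 and 129 FPKM at P28 and at 96.3 and 101 FPKM at P45, and NM_001083811 was at 98.3 and 121 FPKM and then 147 and 122 FPKM. The sum of both differed by −0.02 ± 0.09. Potassium and HCN channel genes gave 19 of 29 lower. An unadjusted p under 0.05 was found for 7 lower and 2 higher ones (6.19% and 5.16% over all transcripts). In VH 20 of the 29 were lower (50.8% over all), but at that p there were 6 higher and 5 lower. Over all 14259 transcripts 906 were higher and 879 lower in VH at that p. The difference of the steps (VH minus DH) was positive for 5 and negative for 1 at that p (3.98% and 3.18% over all).

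Kcnc2, a fast delayed rectifier of interneurons, was at 12.3 and 15.1 FPKM at P28 and at 8.47 and 8.44 FPKM at P45 in the form NM_139217. Kcna4 was at 11.7 and 14.4 FPKM and then 18.7 and 16.3 FPKM. Kcnc2 was lower and Kcna4 higher in both P45 libraries.

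Axon guidance genes gave 23 of 31 lower, 5 of them with an unadjusted p under 0.05 (6.19% over all transcripts). The median of −0.10 lay between −0.16 (without library 2 of P45 DH) and −0.04 (without library 2 of P28 DH) when 1 library was left out, and was −0.05 without library 1 of P45 DH. Robo1, a receptor of Slit ligands, was at 36.8 and 36.2 FPKM at P14, 26.7 and 25.6 FPKM at P28 and 19.5 and 19.8 FPKM at P45 (late change −0.39 ± 0.08, adjusted p = 0.177, limma). Dcc, the netrin receptor, was at 11.3 and 14 FPKM at P28 and at 10.2 and 10.1 FPKM at P45. Both were lower in both P45 libraries.

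Immediate early genes, which report recent neuronal activity, gave 22 of 37 transcripts higher and 15 lower. Nr4a1 was at 12.4 and 11.1 FPKM at P28 and at 17.8 and 18.5 FPKM at P45, and Nr4a2 at 20.7 and 17.8 FPKM and then 13.1 and 13 FPKM. The means of these related nuclear receptors thus differed in opposite directions, by 0.58 ± 0.13 and −0.52 ± 0.14, but neither change was called. Arntl, the core clock activator, was at 11.6 and 11.6 FPKM and then 17.5 and 15.5 FPKM (change 0.47 ± 0.08, adjusted p = 0.161, limma), and Bhlhe40, a clock repressor, at 22.8 and 18.6 FPKM and then 31.6 and 24.3 FPKM. Both were higher in both P45 libraries, but the clock list as a whole gave 9 of 16 transcripts higher and 7 lower with a median of 0.03, which was −0.02 without library 2 of P45 DH and 0.11 without library 1 of P45 DH. The time of day of dissection is not given in the sources used here.

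Markers of hippocampal subfields were checked for a shift in what the pieces held. Dentate granule cell markers gave 6 of 8 transcripts higher, led by C1ql2, a synaptic organiser of mossy fibres, at 54.0 and 69.1 FPKM at P28 and 81.9 and 86.0 FPKM at P45 (change 0.45 ± 0.20, unadjusted p = 0.052). CA2 and CA3 markers gave 6 of 9 lower, with Prss35 at 5.17 and 3.124 FPKM and then 1.71 and 1.70 FPKM. CA1 markers gave 4 of 6 higher with a median of 0.20, which turned to −0.07 without library 1 of P45 DH. In VH the dentate markers ran the other way, with 8 of 8 lower and a median of −0.20, and 3 of the 8 had a negative difference of the steps (VH minus DH) with an unadjusted p under 0.05 (3.18% over all). CA2 and CA3 markers gave 6 of 9 higher in VH (47.5% over all), 4 of them with an unadjusted p under 0.05 (906 of all 14259 transcripts). Their median was 0.20 in VH beside −0.16 in DH. At that p, 3 of the 9 had a positive difference of the steps (3.98% over all). The median of the dentate markers in DH was 0.18, and 0.08 without library 1 of P28 DH. That of the CA2 and CA3 markers was −0.08 without library 2 of P28 DH. The part of such shifts in the other results, the differences between DH and VH included, was not tested.

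Some transcripts had means that turned back at P28. Between them, 79 transcripts (0.554%) had a trough at P28 and 61 (0.428%) a peak, with both steps past a fold of 1.5, and 51 (0.358%) and 47 (0.33%) of these had no overlap between libraries in either step. None was called in both steps by limma (0 troughs and 0 peaks), while at an unadjusted p under 0.05 in both steps there were 31 troughs (0.217%) and 24 peaks (0.168%). Both steps use the same P28 libraries, so they are not independent of each other. A test of the change of slope, the late step minus the early step, was added after the values were seen. It had an adjusted p under 0.05 for 28 transcripts on the positive side (0.196%) and 17 on the negative side (0.119%), and the positive side also holds genes whose fall slowed after P28, such as Tubb2b and Dpysl5. In place of these 45, leaving out 1 library gave 3 to 36, the 3 without library 2 of P28 DH, and a fit of the 6 DH libraries alone gave 0. With the replicate number as a block over all libraries 12 passed.

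Bmp4 had the largest trough. It was at 10.5 and 11 FPKM at P14, at 0.312 and 0.766 FPKM at P28 and at 6.29 and 9.97 FPKM at P45 in DH. The early step was −2.95 (adjusted p = 0.00326), the change of slope 5.50 (adjusted p = 0.0227, limma). In VH the gene stood at 3.88 and 8.31 FPKM at P14, so the same trough was seen in both regions. Unc13c, a vesicle priming protein, was at 4.60 and 3.86 FPKM, then 1.76 and 1.73 FPKM and then 3.17 and 3.88 FPKM (change of slope 1.64, adjusted p = 0.0409).

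Slco1c1, the thyroxine transporter of the blood-brain barrier, was at 60.2 and 64.1 FPKM at P14, 41.4 and 37.8 FPKM at P28 and 52.7 and 48.0 FPKM at P45 (change of slope 0.98, adjusted p = 0.0393, limma). Lcn2, an iron-binding lipocalin, was at 3.41 and 3.83 FPKM, then 0 and 0.383 FPKM and then 1.01 and 0.677 FPKM. For both genes the P45 libraries lay between those of P28 and P14. A form of Cthrc1 (NM_172333), a secreted collagen repeat protein, was at 3.26 and 4.39 FPKM, then 0.000863 and 0.00125 FPKM and then 1.16 and 1.34 FPKM, but its P28 level is split between forms. Their sum at P28 was 0.431 and 0.528 FPKM.

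By the naming rule the widest troughs beside Bmp4 were a form of Aqp4 (NM_001270559), RT1-T24-4, Pmaip1, a form of Myo9b (NM_001271067) and Higd1b. Summed over its 3 forms, Myo9b was at 13.2 and 12.1 FPKM at P28 and at 13.03 and 13.7 FPKM at P45 (change 0.08 ± 0.12), which overlap. Higd1b, a mitochondrial protein marking pericytes, was at 6.71 and 4.52 FPKM, then 0.789 and 1.45 FPKM and then 3.51 and 5.14 FPKM. Pmaip1, a cell death effector, was at 2.34 and 5.92 FPKM, then 0 and 2.25 FPKM and then 5.97 and 3.92 FPKM. The duplicates of these genes differ widely, and the late step of neither was called (adjusted p = 0.34 and 0.321, limma).

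Klk6, a secreted protease of oligodendrocytes, had a peak at P28. It was at 3.59 and 3.116 FPKM at P14, 19.7 and 16.3 FPKM at P28 and 12.1 and 9.63 FPKM at P45 in DH (change of slope −2.81, adjusted p = 0.0462, limma). Gpd1, the glycerol-3-phosphate dehydrogenase of the cytosol, was at 19.1 and 23.3 FPKM, 83.9 and 72.4 FPKM and 41.5 and 57.9 FPKM (change of slope −2.49, adjusted p = 0.0456). In both the P45 values stayed above those of P14. In VH Klk6 was at 12.5 and 12.1 FPKM at P28 and at 16.0 and 10.7 FPKM at P45, which overlap.

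Paqr9, a membrane receptor of the progestin and adipoQ family, was at 8.80 and 8.71 FPKM at P14, 13.4 and 13.9 FPKM at P28 and 9.34 and 8.85 FPKM at P45 (change of slope −1.12, adjusted p = 0.039, limma). Fst, follistatin, which binds activin, was at 0.689 and 0.823 FPKM, 3.26 and 2.16 FPKM and 0.607 and 0.909 FPKM. The early step of Fst was called (1.06, adjusted p = 0.0199) and the late one of −1.07 ± 0.20 was not (adjusted p = 0.177). The P45 values of both genes came back to the range seen at P14 or close to it. The other transcripts with the widest peaks, Cox8b, Nmur2, Hist1h2an and forms of Aqp4 and Esd, had late steps with adjusted p of 0.363 to 0.76. For Nmur2, a neuromedin U receptor, the libraries read 0.139 and 1.81 FPKM, then 7.01 and 4.26 FPKM and then 3.28 and 0.631 FPKM.

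**Figure D4:**
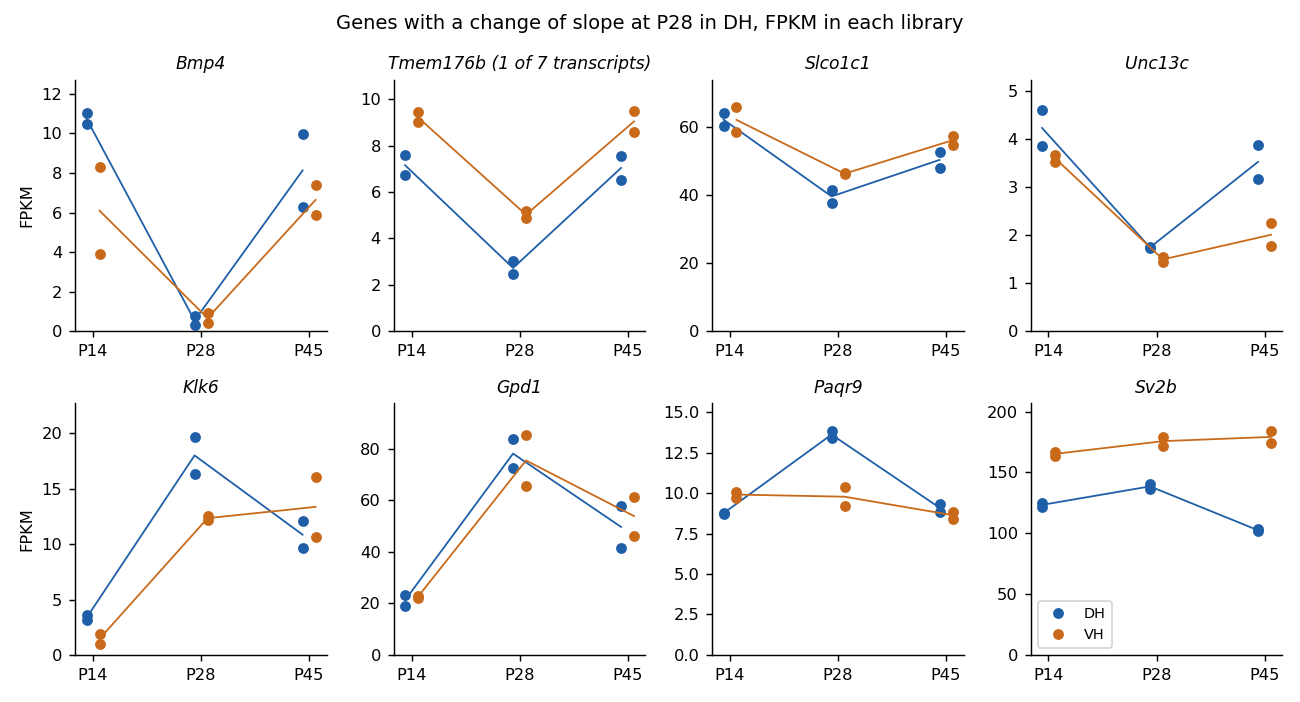
FPKM of 8 genes with a change of slope at P28 in DH, in each library at P14, P28 and P45 (DH blue, VH orange), with lines through the means and axes from 0. The upper row dips at P28 in DH, as in Bmp4 with 0.312 and 0.766 FPKM, and the lower row peaks there in DH, as in Klk6 with 19.7 and 16.3 FPKM.

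The late step was also compared between the regions. limma called 3 transcripts higher (0.021%) and 2 lower (0.014%) from P28 to P45 in VH. The difference of the steps, VH minus DH, had an adjusted p under 0.05 for 2 transcripts on the positive side (0.014%) and 2 on the negative side (0.014%), and at an unadjusted p under 0.05 there were 567 and 454 (3.98% and 3.18%). The 4 are transcripts below 3 FPKM in every library. Ntf3 is the only one of them with a change in DH, and its form was near 0 outside the P45 DH libraries. Of the others, Il21 and Tnp2 passed the filter only through the 1 group in which they were above 0, so that they had to differ and carry no evidence about the regions. With the replicate number as a block over all libraries 0 of the tests passed. Across all 14259 transcripts the steps of the 2 regions had a Pearson r of 0.273, given as a description of transcripts, which are not replicates.

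Sv2b, a synaptic vesicle protein, had the next smallest p after these 4. In DH it was at 125 and 122 FPKM at P14, 141 and 136 FPKM at P28 and 102 and 103 FPKM at P45 (late change −0.43 ± 0.04, adjusted p = 0.0519, limma). In VH it was at 172 and 179 FPKM at P28 and 175 and 184 FPKM at P45. The difference of the steps was 0.46 with an unadjusted p of 5.68e-05, short of the threshold once adjusted, and the change of slope in DH was −0.60 (adjusted p = 0.039). The fold of 1.35 in DH was under the criterion of 1.5.

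Ifi27l2b, of an interferon-inducible family, had means that differed in opposite directions in DH and VH. In DH it was at 5.16 and 5.29 FPKM at P28 and at 2.79 and 1.86 FPKM at P45, and in VH at 1.49 and 1.46 FPKM and then 3.57 and 2.87 FPKM. The libraries of each region did not overlap between ages, and the difference of the steps was 1.69 (unadjusted p = 7.87e-05, limma). Neither this difference nor the step in DH was called once adjusted. Spef1, lower in DH, was at 3.95 and 4.56 FPKM and then 4.81 and 5.07 FPKM in VH (difference 1.02, unadjusted p = 0.000935). Cyp1b1 was near 1 FPKM in VH throughout, between 0.778 and 0.948 FPKM at P28 and P45.

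Vwa1 was lower at P45 in both regions, but by less in VH, where it was at 14.5 and 14 FPKM at P28 and at 11.9 and 10.5 FPKM at P45 (difference 0.54, unadjusted p = 0.00934). Among the genes that were higher in DH, Gfap was at 225 and 180 FPKM and then 328 and 325 FPKM in VH, and the difference of −0.18 had an unadjusted p of 0.375. C1qtnf5 was at 9.86 and 10.01 FPKM and then 14.6 and 16.8 FPKM in VH, with a difference of −0.18 (unadjusted p = 0.235). These genes thus had the same direction in both regions, and a p that misses the threshold does not show that the steps were equal.

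**Figure D5:**
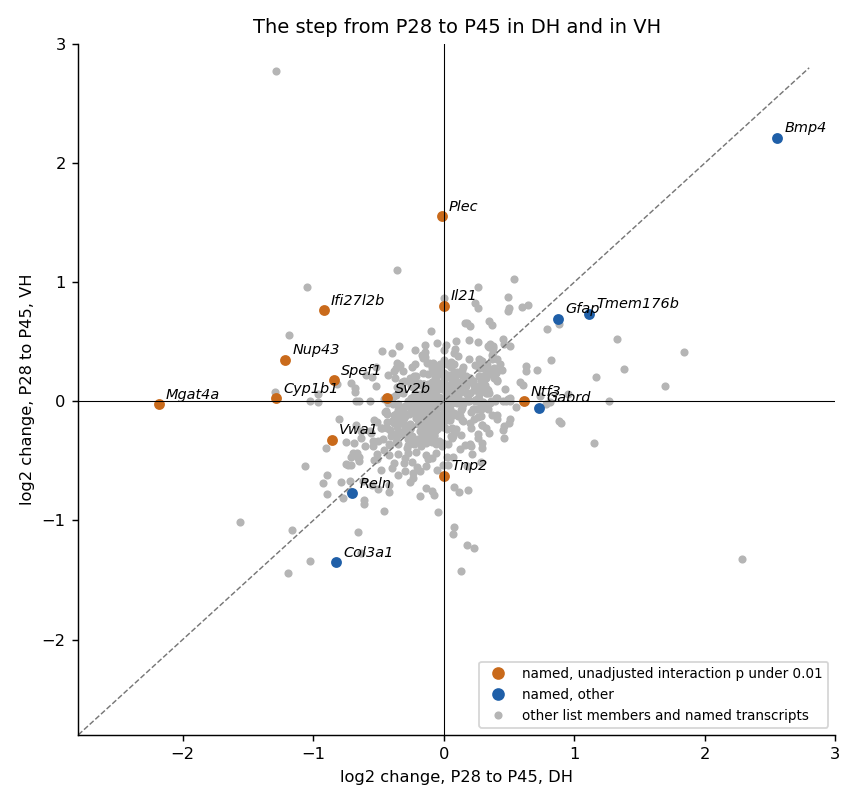
Log2 change of FPKM + 1 from P28 to P45 in DH (horizontal) and in VH (vertical) for list members and named transcripts, with a dashed line of equal change. Bmp4 (2.55 in DH) and Gfap (0.88 in DH) lie near the line, while Sv2b, Spef1 and Ifi27l2b lie above it on the side lower in DH.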

How the data were processed

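RNA from dorsal and ventral hippocampus was sequenced by the authors at P14, P28 and P45, and groups were taken from the labels. The authors mapped reads to rn5 with TopHat2 2.0 and Bowtie2 2.1.0, and their processing notes also name Cufflinks 2.2.1, SAMtools 0.1.19 and R 3.3.0. The authors deposited FPKM, linear and not logged, and these are the values used. Their methods name trimmed mean scaling (TMM) of the FPKM, which cannot be seen in the table. Differences in RNA quality, depth or composition that this left are part of every value. The authors tested read counts, which were not used here. Whole reads could not be recovered (44.9% of 1579 low ratios matched within 0.02 on the log2 scale), so no model for counts was run and no counting error is given. The mapping statistics of the study list fewer pairs for the P28 than for the P45 DH libraries.

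Rows above 0 in at least 2 of the 12 libraries were kept (14259 of 17933; 27 rows have no symbol). Each row of log2(FPKM + 1) got a mean per group (6 groups, 6 residual degrees of freedom) in limma 3.58.1 (R 4.3.3), moderated by eBayes with its trend option. Benjamini-Hochberg adjustment ran over every row tested. Contrasts were P45 against P28 in DH and VH, their difference and P28 against P14 in DH. The change of slope and the step averaged over regions were added after the values were seen. Calls needed an adjusted p under 0.05 and a fold above 1.5 (for differences of steps, the adjusted p alone). Data were simulated for the DH step with normal noise and no other group differences, and changes were planted only in rows well above the floor. There, 83 of 100 changes of 1 (log2) and 99 of 100 changes of 2 were called, with 7 calls among unchanged rows of 14259. So many planted changes make the adjustment more lenient, so these rates do not carry over to the real step. Python 3.11.15 drew figures and summaries, with pandas 2.3.3, NumPy 2.4.6 and matplotlib 3.10.9.

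The members and the 34 gene lists were chosen with earlier results of these data known. Genes were named by rule: in each direction the 8 smallest p with a fold above 1.5, where fewer than 5 were called; the 6 widest troughs and peaks with separated libraries; up to 6 members of a list by level; the 6 smallest p for the regional difference; and control genes. Genes named beyond the rule were chosen after their values were seen. Alternatives were another pseudocount, filter, normalization, test, block and set of libraries, and summing the transcripts of a symbol. Promoter windows are from RefSeq (GRCr8). Of the cholesterol list, 8 symbols had no entry. Some genes are not reported here by name, while the counts over lists include them.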

Additional observations from a re-analysis of the deposited data

Results flagged for a closer look

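In 4 transcripts the step from P28 to P45 differed between VH and DH with an adjusted p under 0.05 in limma. A form of Plec (NM_001164297), the cytolinker plectin, was at 1.58 and 2.34 FPKM in the P45 VH libraries and under 0.03 FPKM in every other library, a difference of 1.57. Il21, an interleukin, was listed at 0 in all libraries but those of P45 VH, which were at 0.745 and 0.747 FPKM, a difference of 0.80. Tnp2, a nuclear protein of spermatids, was listed at 0 in all libraries but those of P28 VH, at 0.547 and 0.537 FPKM, a difference of −0.62. The Ntf3 form NM_001270868 was above 0.001 FPKM only in the P45 DH libraries, a difference of −0.61. Il21 and Tnp2 passed the filter on low values only through the group where they were above 0, so their p-values carry no evidence of a regional difference. Those of the Plec and Ntf3 forms rest on values near 0 in all the other groups. With the replicate number as a block over all libraries, 0 transcripts passed. All 4 lie below 3 FPKM in every library. None was called where transcripts had to average 1 FPKM, since none reaches that mean.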

How the results depend on the processing

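The number of transcripts called higher in DH, 1 in the main analysis, was 7 with a pseudocount of 0.1, 5 with a mean of at least 1 FPKM, 2 with no filter, and 0 with quantile normalization, in a fit of only the 4 libraries, with limma's treat test or with transcripts of a symbol summed. Without 1 library it was 1 to 4, with 4 without P45 DH replicate 2. The number lower, 0 in the main analysis, was 5 with the pseudocount of 0.1, 1 with a mean of at least 1 FPKM and 0 to 4 without 1 library, with 4 without P28 DH replicate 1. Peaks called in both steps were 3 with that pseudocount and 0 to 4 without 1 library. Troughs were 3 with that pseudocount, 2 with a mean of at least 1 FPKM, 1 with no filter and 0 to 1 without 1 library. The difference between regions (4 transcripts) gave 6 with the pseudocount of 0.1, 17 with no filter, 1 without a trend, 1 to 9 without 1 library, and 0 at an adjusted p under 0.01, with a mean of at least 1 FPKM, with quantile normalization or summed by symbol. The change of slope (45) gave 28 without a trend, 90 with a mean of at least 1 FPKM, 3 to 36 without 1 library, and 0 at an adjusted p under 0.01 or in a fit of the 6 DH libraries. The averaged step (21) gave 54 with a mean of at least 1 FPKM, 50 with the pseudocount, 11 with no filter, 0 at an adjusted p under 0.01 and 1 to 17 without 1 library. The cause of these differences was not tested. A treat test of the peaks, troughs and differences was not run.

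No source says that equal replicate numbers mark the same animals. The deviations of libraries with the same number correlated at 0.00767 between P28 DH and P45 DH, and between DH and VH at 0.0752 (P14), 0.0981 (P28) and 0.111 (P45), so the numbers were not taken as pairs, although a weak pairing of DH with VH was not excluded by these values. With the replicate block over all libraries the calls in DH stayed at 1 and 0, the difference between regions went to 0, the change of slope to 12 and the averaged step to 11. With the replicate block within age the averaged step went to 10.

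Of 3542 values for 148 named transcripts, 7 reversed. Summed by symbol, the form of Aqp4 went to 0.31, that of Plec to 0.23, that of Mgat4a to −0.18, that of Kcnd3 to −0.23 and that of Gria2 to −0.0233. Plec was −0.0339 without P28 DH replicate 1 and 0.00022 without P28 DH replicate 2, and Vip was −0.60 without P45 DH replicate 1 and 0.0548 without P45 DH replicate 2. Of 276 medians of the 12 lists past 0.15, 2 changed sign. With 2 libraries a group, small changes are hard to tell from the spread.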

Other observations

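Bc1 (NR_036653), a short non-coding RNA of neurons, was listed at 0 in all P14 and P28 DH libraries and at 129 and 105 FPKM in the P45 DH libraries. In VH it was listed at 263 and 0 FPKM at P28 and at 0 and 123 FPKM at P45. The listed value thus switches between 0 and over 100 FPKM within duplicates of VH. The change in DH had an adjusted p of 0.394 in limma over all libraries. In a limma fit of the 6 DH libraries alone it was 0.00479, and Bc1 was the 1 transcript called higher. In that fit Bc1 was above 0 only in the P45 DH libraries, so its p-value there carries no evidence of a change.

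Npy, a peptide of hippocampal interneurons, is listed at 0 in all 12 libraries, as are Ncan and Hapln4 of the perineuronal net, and these genes were not tested. Psmb9, a subunit of the immunoproteasome, was at 0.589 and 0.361 FPKM in DH at P28 and at 1.43 and 2.35 FPKM at P45, and B2m, the light chain of class I molecules, at 155 and 148 FPKM and then 185 and 197 FPKM. Both were higher in both P45 libraries, while the list of interferon response and antigen presentation as a whole had 17 of 30 transcripts higher and a median of 0.01, which lay between −0.000238 (without library 2 of P45 DH) and 0.13 (without library 1 of P45 DH) when 1 library was left out. Subunits of oxidative phosphorylation gave 23 of 36 higher with a median of 0.02, which lay between −0.01 (without library 1 of P45 DH) and 0.04 (without library 2 of P45 DH). Heat shock genes gave 9 of 12 lower with a median of −0.08.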
